A study of Rattus norvegicus with 4 samples.

Results

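Transcripts of the MHC class II chains, of their chaperone and of the machinery that supplies peptides to MHC class I were followed in rat hippocampal tissue after an excitotoxic injury. The design text names the CA3 area as the tissue taken, while the labels' treatment protocol speaks of hippocampi, so how closely the area was dissected is not settled. The genes were the class II chains RT1-Ba, RT1-Bb, RT1-Da and RT1-Db1, the invariant chain Cd74, the immunoproteasome subunits Psmb8 and Psmb9, the peptide transporter subunit Tap1 and the class I light chain B2m. They are 9 of the 14217 genes on the array that have a probe set annotated with a single gene symbol, and 16 of its 31099 probe sets bear 1 of these symbols and no other. Each gene was read from its brightest probe set by the mean over the arrays. Of the 9 genes, 7 passed a filter on low values, a mean intensity above 62.75. RT1-Bb, with a mean of 62.75, and Tap1 did not, and both are described all the same.

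Sprague-Dawley rats were injected into the hippocampus, and RNA was collected 24 h afterwards from 4 groups, each read on 1 array. The PBS group received the vehicle, the KA group received kainic acid, an agonist of kainate-type glutamate receptors that overexcites and kills CA3 pyramidal neurons, the KA+NAP group received kainic acid together with the peptide NAP, and the NAP group received the peptide alone. NAP is a short neuroprotective fragment of activity-dependent neuroprotective protein. No genetic change is named in any group, the age and sex of the rats are not stated, and the number of animals behind an array is not named in the labels. With 1 array per group no value carries a replicate error, no test between groups was possible, and 2-fold serves only as a rule of size. The arrays had been scaled to one level, and their median intensity lay between 58 and 65. The 9 markers of neurons and CA3 pyramidal cells all passed the filter. Their summed intensity was 19772 with PBS, 13645 with KA, 18962 with NAP and 12620 with KA+NAP, so it was lowest on KA+NAP. Whether this bears on the class II differences was not tested.

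MHC class II molecules are pairs of an alpha and a beta chain that show peptides from the endosome to CD4+ T cells. In the rat, RT1-Ba and RT1-Bb encode the alpha and beta chain of the B molecule, and RT1-Da and RT1-Db1 those of the D molecule. Cd74 fills the groove of the new dimer and guides it to the endosome, where RT1-DMa and RT1-DMb exchange its remnant for peptide. MHC class I molecules, each completed by B2m, instead show peptides cut in the cytosol by the proteasome and carried into the endoplasmic reticulum by the Tap1 and Tap2 transporter. In the healthy brain parenchyma class II is scarce, and microglia, macrophages of the brain's borders and blood-derived cells are its known sources after injury. Class II chain genes share a promoter module of an X and a Y box, which is opened by the coactivator Ciita.

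The 4 class II chain genes had the same order of arrays, though not the same sizes of difference, and the stretch of each promoter that holds the module is shown for them. RefSeq's GRCr8 table gave a window from 250 bases before to 50 bases after the annotated start for all 9 genes. The stretches below run 5′ to 3′ along the gene, from 60 bases before the Y box to 20 bases after it, with the Y box CTGATTGG and, before it, any match to the core of the X1 box, AGNNACNGA, in capitals. They lie at chr20:4576951-4577038 on the plus strand (RT1-Ba), chr20:4604155-4604242 on the minus strand (RT1-Bb), chr20:4515303-4515390 on the plus strand (RT1-Da) and chr20:4560218-4560305 on the minus strand (RT1-Db1).
RT1-Ba: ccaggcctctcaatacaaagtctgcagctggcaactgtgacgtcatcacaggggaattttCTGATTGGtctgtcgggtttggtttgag
RT1-Bb: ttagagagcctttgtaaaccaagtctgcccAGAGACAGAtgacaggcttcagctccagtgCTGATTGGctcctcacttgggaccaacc
RT1-Da: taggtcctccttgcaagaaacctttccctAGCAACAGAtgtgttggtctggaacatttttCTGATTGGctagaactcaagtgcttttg
RT1-Db1: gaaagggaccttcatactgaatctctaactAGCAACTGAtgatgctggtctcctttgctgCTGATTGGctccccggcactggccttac

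The Y box began 46 bases before the start of RT1-Ba, 64 before RT1-Bb, 52 before RT1-Da and 83 before RT1-Db1, always on the gene's own strand. The X1 core ended 21 bases before the Y box in RT1-Bb and RT1-Db1 and 22 bases before it in RT1-Da. In the RT1-Ba stretch these X1 letters were not present. Searched on both strands, the Y box letters occurred in 5 of the 9 windows, those of the 4 class II chains and that of Psmb9, where they lay after the start. They occurred in 3.5% of all 33469 windows of that length in the table. The X1 core occurred in 5 of 9 windows, RT1-Ba (after its start) and Tap1 included, and in 18.1% of all windows. The shorter CCAAT, whose reverse complement is part of the Y box, was in 8 of 9 windows and in 37.5% of all. TTCNNNGAA, the interferon-gamma activated GAS element, was found in Psmb8 alone among these genes, against 8.87% of all windows. GAAANNGAA, an element bound by interferon regulatory factors, was found in Psmb8, Tap1 and B2m, against 9.71% of all windows. These are matches of letters, and no binding was measured.

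**Figure D1:**
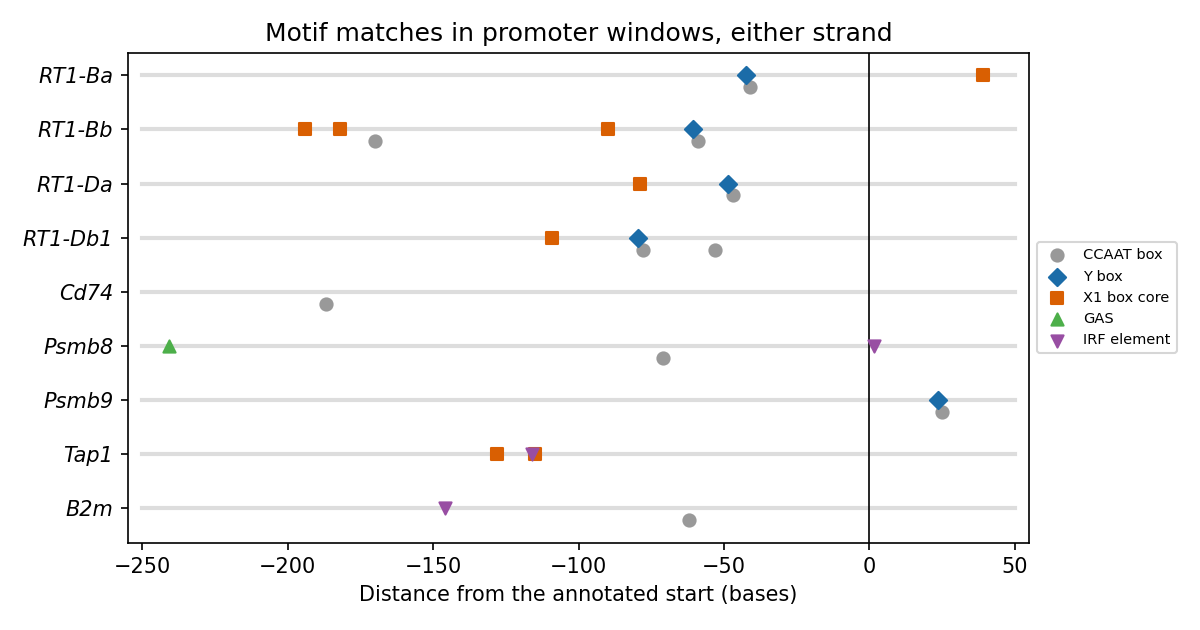
Matches to 5 motifs, on either strand, along the promoter window of each gene, plotted by distance in bases from the annotated start (vertical line at 0, upstream to the left). The blue diamonds of the Y box lie 46 to 83 bases upstream in the 4 class II chain genes, and in Psmb9 after the start, and grey CCAAT points are drawn slightly below the line of their gene.

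Of the 9 genes, 7 lie on chromosome 20 in the GRCr8 gene table, in the order RT1-Da, RT1-Db1, RT1-Ba, RT1-Bb, Psmb8, Tap1 and Psmb9. From the first to the last of these the table has 10 protein-coding genes. The 1 further gene among them that had a value was Tap2, at 49 on the PBS array, 59 on KA, 75 on KA+NAP and 33 on NAP. The promoter windows of Tap1 and Psmb9 overlap on opposite strands, since these genes are transcribed away from each other. Cd74 is on chromosome 18 and B2m on chromosome 3.

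All 5 class II genes, the chains and Cd74, were dimmest with PBS, next with KA, then NAP, and brightest with KA+NAP. Intensities are given as deposited, linear MAS5 signals whose 20th percentile over the whole table is 10. RT1-Ba, the B alpha chain, stood at 47 on the PBS array, 57 on KA, 141 on NAP and 431 on KA+NAP. Its KA and PBS signals lay close together, and the KA+NAP signal was far above the rest. RT1-Bb, the B beta chain, was at 14 with PBS, 27 with KA, 38 with NAP and 172 with KA+NAP. On the arrays without KA+NAP this probe set was near the low end of the table, so its differences from them lean on dim signal.

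RT1-Da, the D alpha chain, was at 99 with PBS, 140 with KA, 196 with NAP and 805 with KA+NAP. RT1-Db1, the D beta chain, was at 31, 59, 90 and 208 on PBS, KA, NAP and KA+NAP. The name of its probe set marks probes shared by several transcripts, so signal from the related RT1-Db2 cannot be told apart from it. Cd74, the invariant chain, was at 108 with PBS, 211 with KA, 348 with NAP and 821 with KA+NAP. It is encoded on another chromosome than the chains, and its arrays fell in the same order.

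On the class I side the spread was smaller. Psmb8, an immunoproteasome subunit, was at 148 with PBS, 160 with NAP, 248 with KA and 380 with KA+NAP, so here KA lay above NAP. Psmb9, its partner subunit, was at 182 with PBS, 158 with KA, 157 with NAP and 339 with KA+NAP. Only the KA+NAP array stood out for it. Tap1 was at 33, 36, 42 and 82 on PBS, KA, NAP and KA+NAP, the last again highest. B2m, among the brighter genes of the array, was at 3270, 3560, 4180 and 4953 in that order. Its arrays had the order of the class II genes, over a narrow range.

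**Figure D2:**
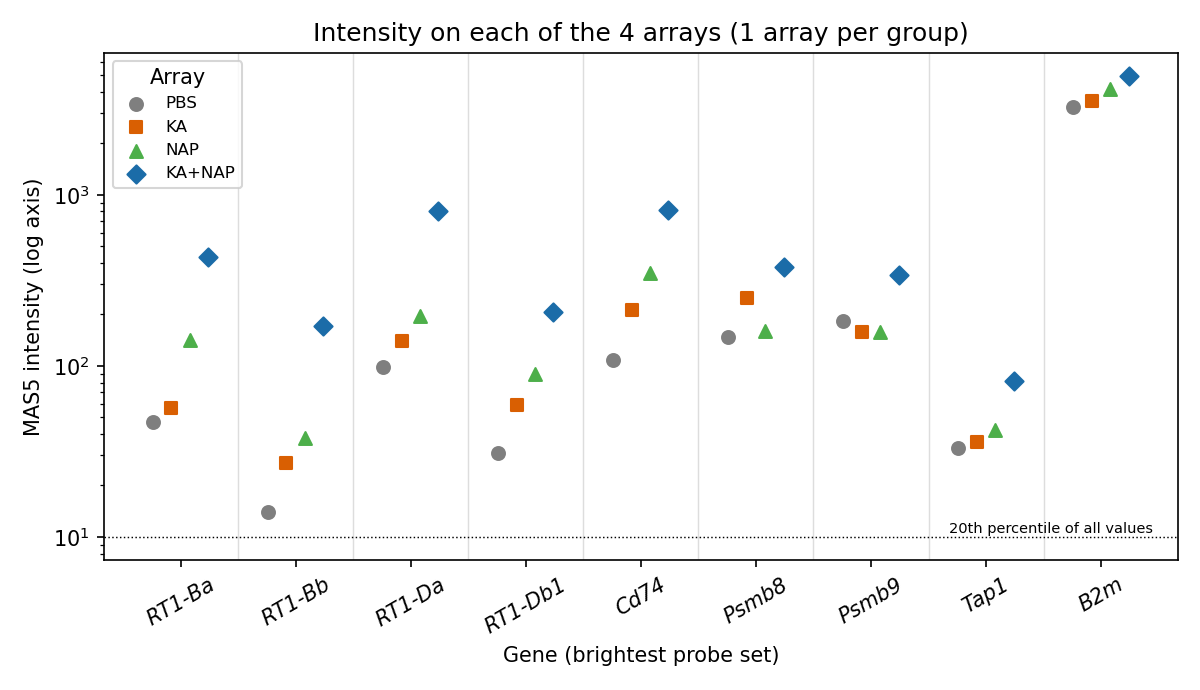
MAS5 intensity (log axis) of the brightest probe set of each gene on the PBS, KA, NAP and KA+NAP arrays, 1 point per array, with a dotted line at 10, the 20th percentile of all values. In every gene the blue diamond of KA+NAP is the highest point, from 82 for Tap1 to 4953 for B2m.

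All 9 genes were highest on the KA+NAP array, where 32.2% of the 9489 genes past the filter and 30.5% of all 14217 genes were highest. The full order KA+NAP, NAP, KA, PBS from high to low was found in 7 of 9, all but Psmb8 and Psmb9, against 3.54% of genes past the filter and 3.49% of all genes. The 5 class II genes were at least 2-fold higher on KA+NAP than on each of the other arrays, which 0.811% of genes past the filter and 0.985% of all genes were. None of the 4 class I genes was. The genes were chosen with earlier results of these arrays known, some of which already showed class II genes high with KA+NAP, so these shares describe the arrays and test nothing.

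KA+NAP against KA addresses the peptide's effect in injured tissue, and there all 5 class II genes were at least 3-fold higher with the peptide. Differences are on the log2(intensity + 10) scale, where 1 is 2-fold, and they understate those of dim genes. RT1-Ba differed by 2.72 (6.58-fold), RT1-Da by 2.44 (5.43-fold), RT1-Bb by 2.30 (4.92-fold), Cd74 by 1.91 (3.76-fold) and RT1-Db1 by 1.66 (3.16-fold). RT1-Ba had the rank 3 from the top among the 9489 genes past the filter, RT1-Da 5, Cd74 15 and RT1-Db1 20. Psmb9 differed by 1.05 and Tap1 by 1.0, at the threshold, while Psmb8 differed by 0.60 and B2m by 0.48. In all, 7 of the 9 genes were at least 2-fold higher, against 2.61% of all genes. Of those past the filter it was 5 of 7, against 1.52% of genes, and a gene can pass that filter through its KA+NAP signal alone. The median over the 9 was 1.66 and that over all genes 0.03. With each array centred on its median log2 value Psmb9 was at 0.98 and Tap1 at 0.92, under 2-fold. With the mean over all probe sets of a gene in place of the brightest, RT1-Ba was at 1.03 and RT1-Bb at 0.93.

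KA against PBS addresses the toxin alone, and no gene of the 9 reached 2-fold, against 4.91% of genes past the filter and 5.35% of all genes. Cd74 differed by 0.91, RT1-Db1 by 0.75, Psmb8 by 0.71, RT1-Bb by 0.62, RT1-Da by 0.46 and RT1-Ba by 0.23. B2m at 0.12, Tap1 at 0.10 and Psmb9 at −0.19 were near the median of all genes past the filter, 0.02. The order of the class II genes was thus not that of KA+NAP against KA, where RT1-Ba led.

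NAP against PBS addresses the peptide in tissue without the toxin. Here 4 of 9 genes were at least 2-fold higher, against 1.93% of all genes, and 3 of the 7 past the filter, against 1.05%. Cd74 differed by 1.60 (3.03-fold), RT1-Ba by 1.41 (2.65-fold), RT1-Db1 by 1.29 (2.44-fold) and RT1-Bb by 1.0, exactly at the threshold. RT1-Da, at 0.92, was just below it. None of the class I genes came near, with B2m at 0.35, Tap1 at 0.27, Psmb8 at 0.11 and Psmb9 at −0.20. This result depended on the processing, since a pseudocount of 50 leaves Cd74 alone at 2-fold, as does the mean over all probe sets of each gene. With those settings RT1-Ba was at 0.98 and 0.40.

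KA+NAP against NAP addresses the toxin where the peptide is given too. At least 2-fold higher were 7 of 9 genes, against 6.36% of all genes, and 6 of the 7 past the filter, against 5.67%. RT1-Da differed by 1.98, RT1-Bb by 1.92, RT1-Ba by 1.55, Cd74 by 1.21, Psmb8 by 1.20, RT1-Db1 by 1.12 and Psmb9 by 1.06. Tap1 was at 0.82 and B2m at 0.24. KA+NAP and KA share the toxin, KA+NAP and NAP the peptide, and both differences contain the same KA+NAP array, so they are not independent of each other.

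KA+NAP against PBS sums these steps. The class II genes were 2.95 (RT1-Ba, 7.74-fold), 2.92 (RT1-Bb), 2.90 (RT1-Da), 2.82 (Cd74) and 2.41 (RT1-Db1) above the PBS array. With the mean over all probe sets RT1-Ba was at 1.09, RT1-Bb at 1.03 and RT1-Db1 at 1.59, and the median over the 7 past the filter was 1.30 in place of 2.41. Psmb8 was at 1.30, Tap1 at 1.10, Psmb9 at 0.86 and B2m at 0.60. In all 7 of 9 reached 2-fold, against 7.93% of all genes, and 5 of the 7 past the filter, against 7.42%. The size of the KA difference with NAP less that without NAP was 1.52 for RT1-Da, 1.31 for RT1-Ba, 1.30 for RT1-Bb, 1.26 for Psmb9, 0.73 for Tap1, 0.49 for Psmb8, 0.37 for RT1-Db1, 0.31 for Cd74 and 0.12 for B2m. All 9 lay above 0, and 4 reached 1, against 4.13% of all genes. Of the 7 past the filter 3 did, against 1.77%. Which chains stood apart here depended on the probe sets. With the mean over all probe sets of a gene RT1-Db1 was at 0.85, RT1-Ba at 0.63 and RT1-Bb at 0.54, with RT1-Db1 then the highest of these 3 chains, and the further RT1-Db1 probe set alone gave 1.33. This difference of differences was taken up after the data were seen and has no error.

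**Figure D3:**
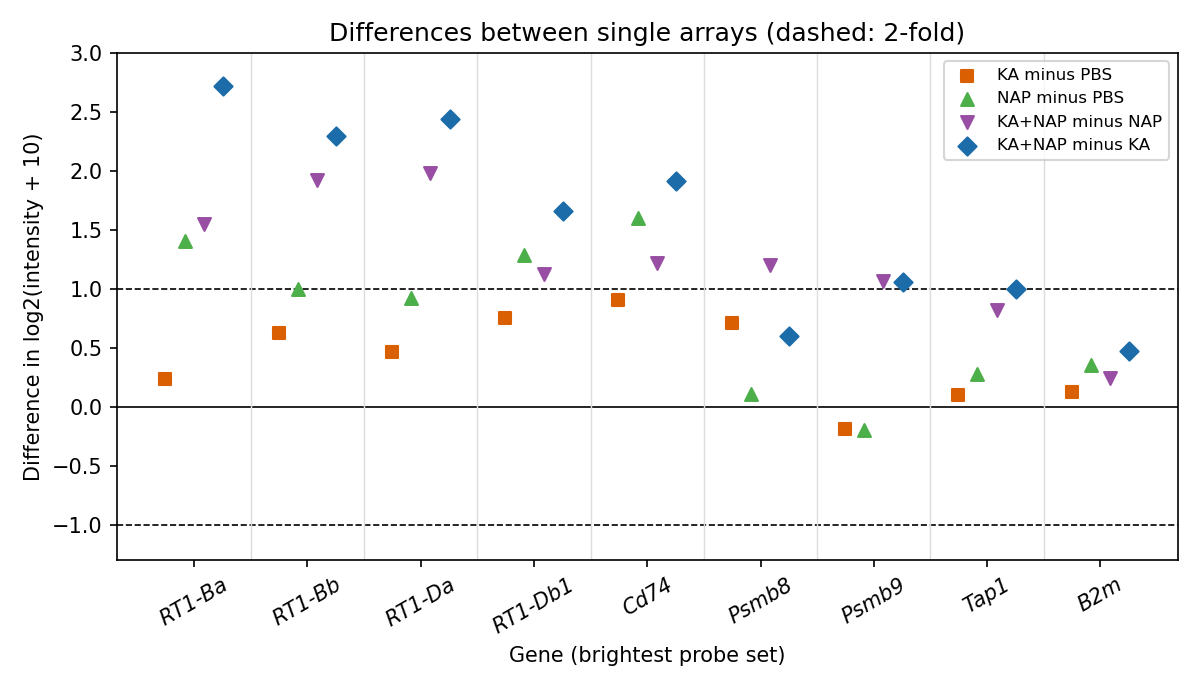
Differences in log2(intensity + 10) between single arrays for each gene, with dashed lines at 2-fold. For the 5 class II genes the KA+NAP minus KA points lie between 1.66 and 2.72 and the KA minus PBS points between 0.23 and 0.91, while B2m stays under 0.5 in the 4 comparisons drawn.

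Agreement between probe sets could be examined for 5 of the 9 genes. Of 7 other probe sets, 4 stayed at 12 or less on every array and carried little signal. RT1-Ba had a second readable probe set at 24 with PBS, 28 with KA, 28 with NAP and 94 with KA+NAP. It too was highest with KA+NAP, by 1.45 over KA, but its NAP signal equalled that of KA. The further RT1-Db1 probe set read 13, 11, 7 and 29 in the same order, so the NAP signal was lowest there. The further B2m probe set read 1312, 1150, 1477 and 1884, with KA below PBS. The KA+NAP array was thus highest in each readable probe set, whereas the place of NAP over KA rested on the brightest probe sets of RT1-Ba, RT1-Bb and RT1-Db1 and on the single ones of RT1-Da and Cd74. MHC genes are polymorphic, and the match of these probes to the alleles of the rats used was not examined.

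**Figure D4:**
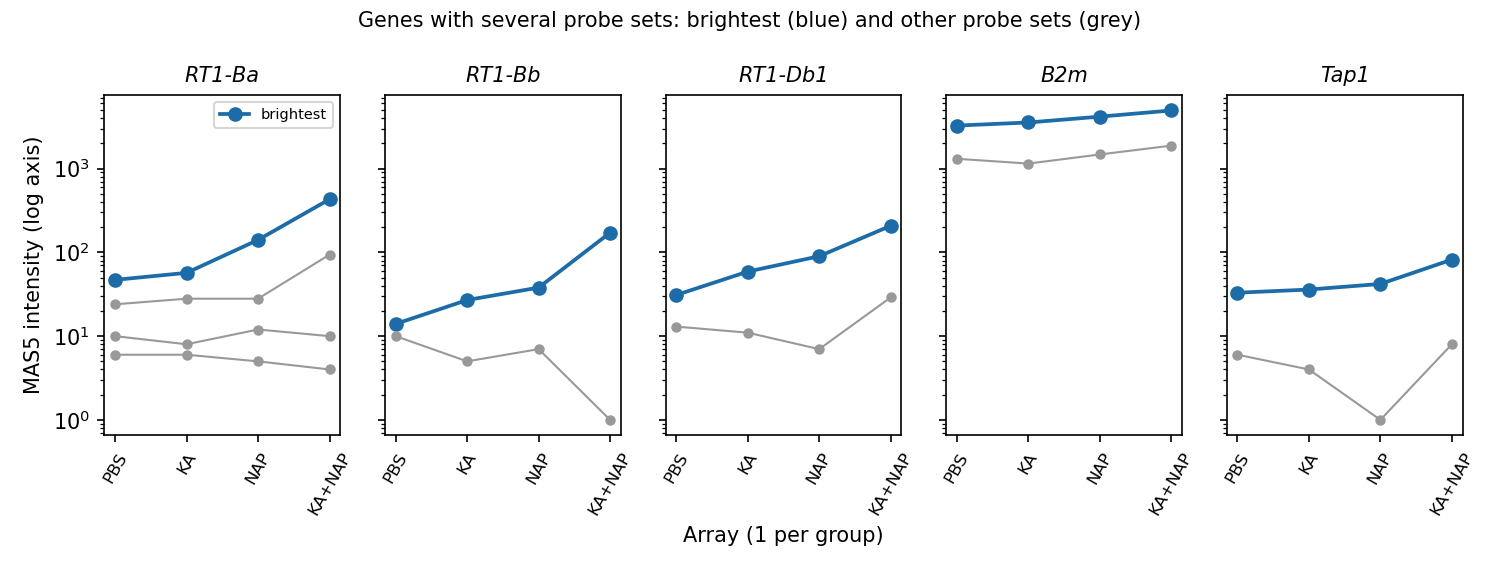
MAS5 intensity (log axis) on the 4 arrays for each probe set of the 5 genes that have several, brightest in blue and others in grey, with lines joining the values of 1 probe set. Grey lines at 12 or less carry little signal, and those of RT1-Ba at 24 to 94 and of B2m at 1150 to 1884 end highest on KA+NAP.

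Genes that load and regulate class II were set beside the chains. Of 25 listed, 22 were on the array and 17 passed the filter. In KA+NAP minus KA 2 of the 17 were at least 2-fold higher, against 1.52% of genes, and none lower, and their median was 0.28. RT1-DMb, the beta chain of the peptide exchanger, was at 233 with PBS, 284 with KA, 263 with NAP and 620 with KA+NAP, a difference of 1.10 over KA. Its alpha partner RT1-DMa differed by 0.54. Ifi30, a lysosomal thiol reductase that unfolds antigens, was at 220, 324, 396 and 727, a difference of 1.14. Both followed the class II genes in being highest with KA+NAP.

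The cathepsins that cut antigen and invariant chain did not share one pattern. Ctsz was at 149 with PBS, 523 with KA, 391 with NAP and 1034 with KA+NAP, and was the 1 gene of the 17 at 2-fold in KA minus PBS (1.75, background 4.91%) and in NAP minus PBS (1.33, background 1.05%). It and RT1-DMb (1.21) were the 2 at 2-fold in KA+NAP minus NAP, where Ctsz differed by 1.38 and 5.67% of genes were called. Ctss, which makes the last cut in the invariant chain, was at 3777 with PBS, 2102 with KA, 3107 with NAP and 3394 with KA+NAP, so no array exceeded PBS. The X box and Y box binding proteins Rfx5, Rfxap, Nfya, Nfyb and Nfyc were all under 2-fold in each comparison. The further subunit Rfxank, too dim to pass the filter, was at 7, 3, 13 and 31 on PBS, KA, NAP and KA+NAP, a difference of 1.66 in KA+NAP minus KA. Ciita, named like Rfxank after its values were seen, was at 25, 13, 13 and 36 on PBS, KA, NAP and KA+NAP, too dim to pass the filter. The costimulatory genes Cd80, Cd86 and Cd40 also failed it, with no signal above 92.

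Genes of the class I route were examined in the same way. Of 24 listed, 19 were on the array and 10 passed the filter, and none of the 10 was 2-fold higher or lower in KA+NAP minus KA, KA+NAP minus NAP or NAP minus PBS. Their median was 0.24 in KA+NAP minus KA, beside 0.28 for the class II loading genes. In KA+NAP minus PBS 2 of the 10 reached 2-fold, Erap1 at 1.69 and Psme1 at 1.47, against 7.42% of genes. Erap1, which trims peptides in the endoplasmic reticulum, was at 360 with PBS, 956 with KA, 590 with NAP and 1180 with KA+NAP, and at 1.38 was the 1 gene past 2-fold in KA minus PBS (background 4.91%). Psme1, a subunit of the proteasome activator, was at 527, 1023, 930 and 1479 in the same order. Psmb10, the third immunoproteasome subunit, differed by 0.43 in KA+NAP minus KA. Psmb5 and Psmb7, standard subunits that the immunoproteasome replaces, stayed between 3191 and 3446 and between 3179 and 3432 on the 4 arrays.

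Genes of interferon signalling and response, a pathway that can raise both presentation routes, were also examined. Not every listed gene acts on presentation itself. Interferon gamma itself (Ifng) was at 2 with PBS and 1 with KA+NAP and listed at 0 with KA and NAP. Of 28 listed genes 26 were on the array and 19 passed the filter. In KA+NAP minus KA 1 was at least 2-fold higher, Stat2 at 1.0 (163 to 336), against 1.52% of genes, with a median of 0.42. In KA+NAP minus NAP 4 of the 19 were, against 5.67% of genes, namely Irf9 at 1.62, Irf8 at 1.27, Ifitm3 at 1.17 and Usp18 at 1.14. In KA minus PBS 2 were, against 4.91% of genes, the kinase Jak2 at 1.18 and Irf8 at 1.10, and in NAP minus PBS none. Irf1, a direct activator of Psmb9 and Tap1, was at 103 with PBS, 206 with KA, 130 with NAP and 175 with KA+NAP, so its highest array was KA and not KA+NAP. The receptor chains Ifngr1 and Ifngr2 were under 2-fold throughout.

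Markers of cells that can carry class II were set beside these genes, and the lists did not share one course. Bulk tissue cannot tell more cells of a type from more RNA per cell. Of 18 microglia and macrophage markers on the array, 17 were highest on KA+NAP, where 30.5% of all genes were highest. The summed intensity of the 18 was 4487 with PBS, 6787 with KA, 7373 with NAP and 13381 with KA+NAP. Lyz2 alone was at 1410, 2757, 3483 and 5292 in the same order, and without it the NAP sum would lie below that of KA. The sum over the 5 class II genes was 299, 494, 813 and 2437 in the same order. In KA+NAP minus KA 8 of 16 microglia and macrophage markers past the filter were at least 2-fold higher, against 1.52% of all genes past the filter, with a median of 0.997. The median of the 5 class II genes was 2.30. Monocyte and neutrophil markers, 9 on the array, summed to 572, 1299, 1301 and 2773, with 7 of 9 highest on KA+NAP. Most of the NAP sum came from Lcn2, at 101, 144, 743 and 852. In KA+NAP minus KA 4 of the 6 past the filter were at least 2-fold higher, against 1.52% of genes, with a median of 1.14. These were S100a8, S100a9, Lcn2 and Plac8. In NAP minus PBS 2 of the 6 past the filter were at least 2-fold higher, S100a9 and Lcn2, against 1.05% of genes, with a median of 0.47.

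Border macrophage markers, 8 on the array, followed another course. They summed to 308 with PBS, 213 with KA, 643 with NAP and 564 with KA+NAP. Of the 8, 2 were highest on KA+NAP, against 30.5% of all genes. Among them Mrc1 was at 62, 34, 111 and 128 and Lyve1 at 137, 52, 196 and 176. In KA+NAP minus KA these were the 2 of 3 markers past the filter at 2-fold, against 1.52% of genes. Mrc1 differed by 1.65 and Lyve1 by 1.58, the latter also the median. The erythrocyte markers summed to 37, 224, 1504 and 1606, carried by Hbb at 5, 186, 1430 and 1549. Meningeal and fibroblast markers, all 7 on the array, summed to 1021, 845, 1984 and 1242. In NAP minus PBS 4 of the 6 past the filter were at least 2-fold higher, against 1.05% of genes, with a median of 1.46. Ogn was there at 63 with PBS and 237 with NAP, Igf2 at 157 and 528, and Col1a2 at 75 and 270. The NAP array thus exceeded PBS in the sums of border macrophage, erythrocyte and meningeal markers as well as in the class II genes. This was not particular to these lists. The NAP sums of microglia and macrophage and of monocyte and neutrophil markers, given above, were also higher than with PBS. So was that of the 6 endothelial markers on the array, at 1380 with PBS and 2133 with NAP. Choroid plexus and ependyma markers, 5 on the array, summed to 1537, 1942, 1753 and 1084, with 2 of 5 highest on KA+NAP. Their median in KA+NAP minus PBS was 0.60 over the 5 and 0.10 over the 4 past the filter. In KA+NAP minus KA the median of these 4 was −1.23. Of the 4, 2 were at least 2-fold lower there, Ttr and Epcam, against 57 of 9489 genes past the filter. Ttr was at 354, 453, 359 and 76, lowest on KA+NAP. Homeostatic microglia markers, 4 on the array, summed to 1741, 556, 1343 and 854, with 3 of them highest on PBS and Sall1 highest on KA+NAP, at 197.

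Lymphocyte markers were dim. No T and NK cell marker exceeded 72 and no B cell marker 67 on any array, and none was at 0. The T and NK sum over 10 markers was 174 with PBS, 159 with KA, 165 with NAP and 263 with KA+NAP. Of the 10, 6 were highest on KA+NAP, against 30.5% of all genes, among them Cd8a at 72 and Cd3e at 39. Cd4 was lowest there, at 42, 23, 19 and 3 on PBS, KA, NAP and KA+NAP. Lck, the 1 marker past the filter, was at 63, 66, 66 and 71 in the same order. The B cell sum over 4 markers lay between 83 and 124. Dendritic cell markers, 7 on the array, summed to 620 with PBS, 730 with KA, 684 with NAP and 783 with KA+NAP. Of the 7, 3 were highest on KA+NAP, against 30.5% of all genes. Most of the sum came from Cd83, at 455, 483, 460 and 414 in the same order, lowest on KA+NAP. Itgax, which did not pass the filter, was at 1, 84, 20 and 115, and Flt3, which also failed it, at 19, 6, 39 and 14. None of the 2 markers past the filter reached 2-fold in a comparison. The part that any of these cells had in the class II differences was not tested.

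**Figure D5:**
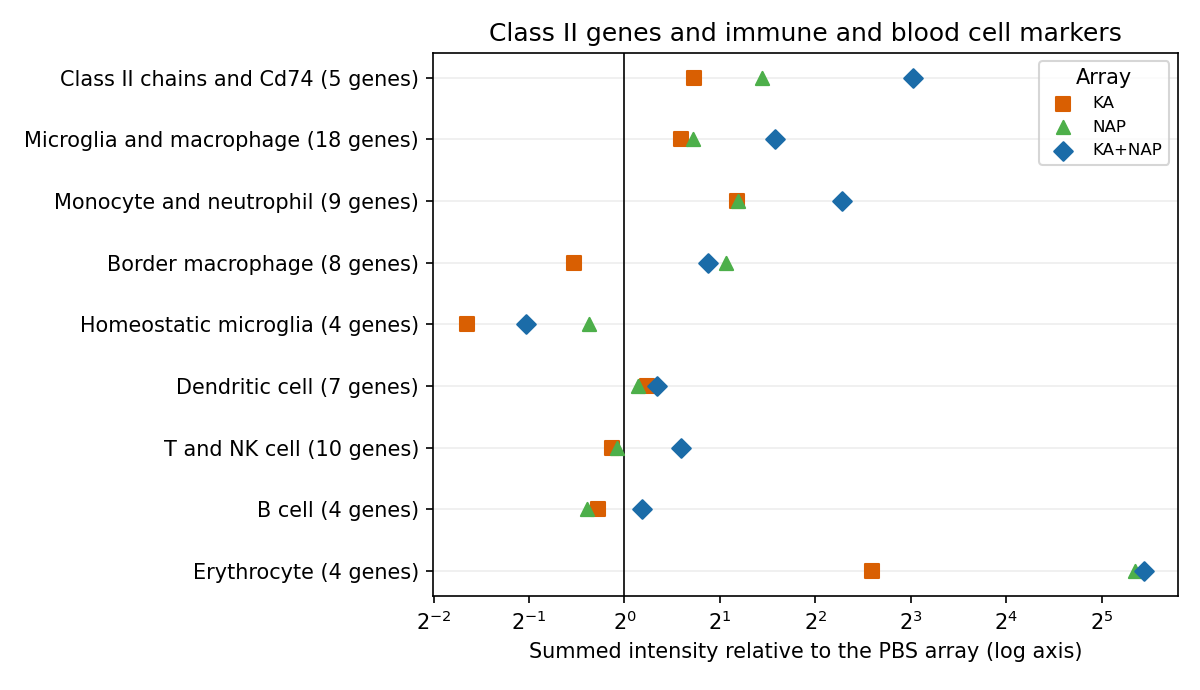
Summed intensity of each gene list relative to the PBS array (log axis, line at 1), with 1 point per array. The class II sum goes from 299 on PBS to 2437 on KA+NAP, the microglia and macrophage sum from 4487 to 13381 and the erythrocyte sum from 37 to 1606, while the border macrophage and erythrocyte points of NAP lie beside those of KA+NAP.

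The genes nearest in pattern to the mean of the 5 class II genes were found by Euclidean distance between centred log2 values over the 4 arrays, among 9482 genes past the filter. They were Rac2 at a distance of 0.59, C5ar1 at 0.59, Cd68 at 0.60, Dab2 at 0.62, Ctsc at 0.67, Clec4a3 at 0.68, Arl11 at 0.70 and Ms4a6bl1 at 0.71. The class II genes themselves lay between 0.27 and 0.42 from their own mean, which they define. Rac2, a GTPase of blood cells, was at 74 with PBS, 130 with KA, 163 with NAP and 367 with KA+NAP, and C5ar1, the receptor for complement fragment C5a, at 51, 116, 121 and 323. Both had the order of the class II genes, with 1.43 and 1.40 for KA+NAP minus KA.

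Nearest to the mean of Psmb8, Psmb9, B2m and Tap1 were Tceanc2, Ncaph, Blnk, Sipa1, Kntc1, Tlnrd1, Otud7b and Grn, at distances between 0.07 and 0.13. Grn, the lysosomal growth factor precursor progranulin, was at 741 with PBS, 869 with KA, 900 with NAP and 1420 with KA+NAP. The members of this group lay between 0.19 and 0.46 from their own mean, farther than the named genes.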

How the data were processed

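The authors deposited linear intensity values for 4 arrays, computed with MAS5 per the submitters' processing notes. RNA was amplified and labelled with the Affymetrix protocol for small samples, per the labels' protocols. No source used here gives the MAS5 version or settings, and detection calls were not used. After removal of 2% of values at each end every array had a mean of 250.1, so the deposited intensity values were already scaled. The number of arrays limits the precision.

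Of 31099 probe sets, 20832 had 1 gene symbol in the platform annotation, 436 had several and were not named, and 57 were controls. Symbols were updated through Entrez identifiers, of which 20764 were in the GRCr8 table. The brightest probe set stood for a gene. Differences of log2(intensity + 10) were formed with pandas 2.3.3, and the procedure was checked on simulated data. All 9 members, 2-fold genes of 4 pathway lists (at most the 4 largest), and the 8 nearest profiles were named. The members and lists were chosen with earlier results of these data known. Alternatives were other pseudocounts, filters, scalings and probe set rules. No coordinates of the deposited probes are given, since their build is not named.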

Additional observations from a re-analysis of the deposited data

Results flagged for a closer look

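Among the 9 genes, and the pathway genes past the filter that reached 2-fold in a comparison, the KA difference of 3 lay on opposite sides of 0 without and with NAP, each from single arrays, and the difference between the comparisons was not tested. Pathway genes under 2-fold in every comparison were not considered. Psmb9 was at −0.19 in KA minus PBS and 1.06 in KA+NAP minus NAP. Usp18, an interferon-induced protease, was at −0.50 and 1.14. Stat2, a transcription factor of the interferon response, was at −0.065 and 0.73.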

How the results depend on the processing

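With 1 array per group no replicate could be left out. No paired analysis was possible because each group had a single array. Counts are of members past the filter, 7 in the setting reported. With the filter at the 75th percentile 3 members were left (Cd74, RT1-Da and B2m), and the counts at 2-fold were 2 in KA+NAP minus NAP, 2 in KA+NAP minus KA, 1 in NAP minus PBS and 2 in KA+NAP minus PBS. The count in NAP minus PBS was 1 with a pseudocount of 50 and 1 with the mean over all probe sets. Medians and the other counts kept their direction and side of 2-fold, or stayed within 1.5 times. With the mean over all probe sets, B2m was at −0.033 and Tap1 at −0.048 in KA minus PBS, and Tap1 at −0.13 in NAP minus PBS, turned from small values above 0. Single gene comparisons under the alternatives numbered 342. The 54 without a filter and the 18 with the stricter filter could not change, since a filter leaves the difference of a gene as it is. Comparisons under 2-fold from the outset could not fall below it either, so 342 is no measure of stability. In all, 24 fell below 2-fold under an alternative, 10 of them with the mean over all probe sets. This mean takes in dimmer probe sets, and not all of those were unresponsive. The second RT1-Ba probe set was at 1.45 in KA+NAP minus NAP. The further RT1-Db1 probe set was at 1.20 there and at −0.44 in NAP minus PBS. With this mean RT1-Ba was at 0.69 and RT1-Bb at 0.65 in KA+NAP minus NAP, and RT1-Bb at 0.93 in KA+NAP minus KA. RT1-Ba was at 1.03 in KA+NAP minus KA with this mean. RT1-Ba, RT1-Da, RT1-Db1 and Cd74 stayed at 2-fold or more in KA+NAP minus KA under each alternative that gave them a value.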
